A study of Mus musculus with 11 samples.

Results

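Atp2b2 encodes plasma membrane calcium ATPase 2 (PMCA2), and its transcripts were followed here through 3 rows of a table of 63244 UCSC transcripts. The rows are uc009dhq.2, which carries the transcript name Atp2b2-206, uc009dho.1 (Atp2b2-202) and uc009dhr.1 (Atp2b2-208). They were chosen because Atp2b2 is listed among the transcripts that differ between sleep deprived and non-sleep deprived mice in these same libraries. The values for that contrast are therefore given below as a description, with no p-value for a member. RNA bound to tagged ribosomes was isolated from hippocampi of male CaMKIIα-Cre:RiboTag mice aged 2-3 months, and 11 libraries of it were sequenced. The 5 non-sleep deprived (NSD) libraries came from control mice killed at the same time as the sleep deprived mice. The 6 sleep deprived (SD) libraries came from mice kept awake for 5 h from the start of the light phase. This was done by tapping and shaking the cage. Mice of both groups carried the same alleles, in which Cre driven by the CaMKIIα promoter switches on an epitope tag on a ribosomal protein, mainly in excitatory forebrain neurons. Each library pooled 2 mice, so the spread between libraries is that between pools.

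PMCA pumps sit in the cell membrane and use ATP to move calcium out of the cell, which returns the cytosol to its low resting level after a rise. PMCA2 is the fast member of the family, is found in neurons and in the hair cells of the inner ear, and is stimulated by calmodulin through its C-terminal tail. Its transcripts are spliced at site A, within the part that encodes an intracellular loop, and at site C, within the part that encodes the tail. Inclusion of an extra exon at site C is known to shift the reading frame and to give a different tail. A stop codon that lies well upstream of the last exon junction is the usual mark by which an annotation calls a transcript a target of nonsense-mediated decay (NMD), the pathway that removes such RNAs during translation.

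The gene lies on the minus strand of mouse chromosome 6, from 113743831 to 114042613 in GRCm38/mm10, and has 8 transcripts in GENCODE vM21. The exon sequences at the splice sites are shown because they separate Atp2b2-206 from Atp2b2-202. Capitals mark the inserted exons 8 to 10 at site A and exon 22 at site C, and lower case the bases next to them in the spliced RNA, read 5′ to 3′ from GRCm38 on the strand of the gene.
Site A, Atp2b2-202: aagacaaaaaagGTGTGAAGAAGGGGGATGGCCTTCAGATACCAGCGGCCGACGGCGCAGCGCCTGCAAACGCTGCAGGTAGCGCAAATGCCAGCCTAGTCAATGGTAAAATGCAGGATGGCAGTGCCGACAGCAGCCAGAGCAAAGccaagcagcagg
Site A, Atp2b2-206: aagacaaaaaagccaagcagcagg
Site C, Atp2b2-206: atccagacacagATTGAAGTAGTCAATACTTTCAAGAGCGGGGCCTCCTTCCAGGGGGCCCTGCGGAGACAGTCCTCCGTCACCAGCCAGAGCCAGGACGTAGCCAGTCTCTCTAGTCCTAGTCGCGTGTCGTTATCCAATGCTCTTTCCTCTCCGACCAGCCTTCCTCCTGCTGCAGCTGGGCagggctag
Site C, Atp2b2-202: atccagacacagatccgcgtcgtg
At site A, Atp2b2-202 carries 135 inserted bases, a length that keeps the reading frame, in coding exon 8 (113803747 to 113803779), coding exon 9 (113802486 to 113802545) and coding exon 10 (113797110 to 113797151). Atp2b2-206 and Atp2b2-208 lack all 3 of these exons. At site C, Atp2b2-206 carries the 172 bases of exon 22 (113755217 to 113755388), a length that shifts the frame. The closing 8 lower-case bases of that sequence are the start of exon 23, which is also absent from the other 2 transcripts. The frame ends there at a TAG (113751683 to 113751685), 119 bases before the last exon junction, and the annotation types the transcript as NMD. Atp2b2-202 and Atp2b2-208 skip both exons and share a stop codon at 113748537 to 113748539 in the last exon. All 3 transcripts share 1 start codon.

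The counting used by the authors put a read on a row only where the read could be told from every other transcript, through bases that belong to 1 transcript alone or, for reads over several exons, through a combination of exons that 1 transcript alone holds. Only the former were measured here. In vM21, Atp2b2-206 has 299 such bases, in exons 22 and 23, and 177 of them are coding. Atp2b2-202 has 303, in its non-coding first exon (113934481 to 113934681) and in exons 9 and 10, and 102 of them are coding. Atp2b2-208 has 0, since every one of its exonic bases is also in Atp2b2-201. None of the bases particular to the first pair overlaps an exon of another gene. The authors counted on a UCSC annotation that was not at hand, so the bases behind their rows may differ, and the bases behind the counts of uc009dhr.1 were not located. For uc009dho.1 the alternative first exon holds 201 of the 303 bases, and the remainder lies in the site A insert. The shares of the rows are shares of counts and not of RNA molecules.

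**Figure D1:**
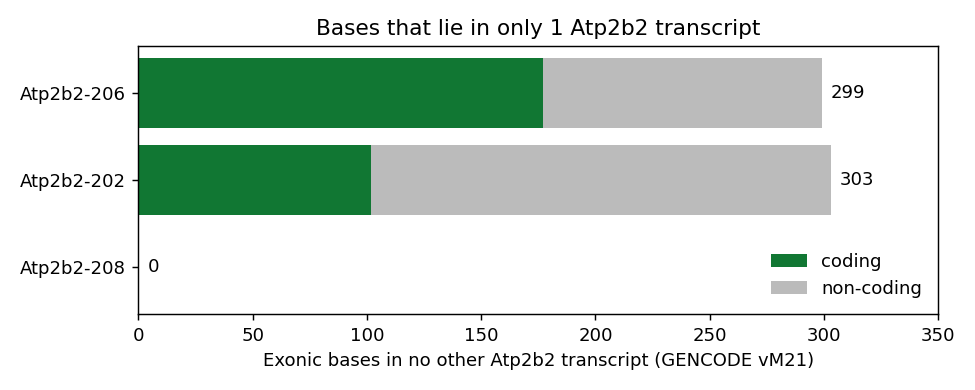
Exonic bases of each of the 3 transcripts that lie in no other Atp2b2 transcript of GENCODE vM21 (x axis, bases), with coding bases in green and non-coding bases in grey. Atp2b2-206 and Atp2b2-202 have a like number, 299 and 303, and Atp2b2-208 has 0.

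The libraries were of similar depth, with 22074914 to 25984063 reads counted on transcripts in the NSD group and 24139337 to 29549339 in the SD group. Reads outside annotated transcripts made up 9.97% to 27.6% of a library. NSD replicate 2 stood apart with 27.6% of such reads and with 12.3% of reads that did not map uniquely, against at most 6.23% in the others. Levels are given as CPM, the counts of a row relative to the library total after upper-quartile scaling.

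The row uc009dhq.2, the form with the extra site C exon, took most of the counts of the 3 rows. Other Atp2b2 transcripts were not analysed here and are in neither the sum nor the shares. It held 57.0% in NSD replicate 2, 64.2% in replicate 3, 59.2% in replicate 4, 64.9% in replicate 5 and 63.0% in replicate B. In the SD libraries it held 52.6% in replicate 1, 66.3% in replicate 2, 52.4% in replicate 3, 65.6% in replicate 4, 69.5% in replicate 6 and 59.1% in replicate D. The extremes were both SD libraries, replicate 3 with a 95% exact Clopper-Pearson interval of 48.5% to 56.4% and replicate 6 with 65.9% to 72.8%. These intervals do not meet, and they cover counting error only, as reads without molecular identifiers are not independent molecules. The mean share was 61.6% ± 3.41 (SD, n = 5) in NSD and 60.9% ± 7.32 (SD, n = 6) in SD libraries, a difference of -0.71 percentage points with a standard error of 3.35. The sign of this difference turned without NSD replicate 5 (0.093), SD replicate 1 (0.94) or SD replicate 3 (0.98), and in the 6 same-numbered libraries (1.33).

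The row uc009dho.1, the form with the site A insert, held a smaller part of the counts. Its share was 26.1%, 27.8%, 22.6%, 26.2% and 25.9% in NSD replicates 2, 3, 4, 5 and B. It was 27.0%, 24.4%, 30.8%, 27.6%, 23.6% and 27.7% in SD replicates 1, 2, 3, 4, 6 and D. The means were 25.7% ± 1.92 and 26.9% ± 2.61, a difference of 1.12 percentage points with a standard error of 1.37, which was 0.33 without NSD replicate 4 or SD replicate 3, 1.78 without SD replicate 6 and 2.11 in the same-numbered libraries. The lowest share was in NSD replicate 4 (interval 19.6% to 25.7%) and the highest in SD replicate 3 (27.3% to 34.6%). These intervals do not meet, while the groups overlapped.

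The share of uc009dhr.1 varied most in relation to its size. It was 16.9%, 7.99%, 18.2%, 8.92% and 11.1% in NSD replicates 2, 3, 4, 5 and B. It was 20.3%, 9.29%, 16.7%, 6.79%, 6.97% and 13.2% in SD replicates 1, 2, 3, 4, 6 and D. In both groups some libraries lay below 10% and others above 16%. The interval was 4.93% to 9.06% for the lowest library, SD replicate 4, and 17.4% to 23.5% for the highest, SD replicate 1. Group means were 12.6% ± 4.68 and 12.2% ± 5.53, a difference of -0.41 percentage points with a standard error of 3.08. It was positive without any 1 of 5 libraries, NSD replicates 2 (0.66) and 4 (0.99) and SD replicates 2 (0.18), 4 (0.68) and 6 (0.64), and -3.44 in the same-numbered libraries.

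**Figure D2:**
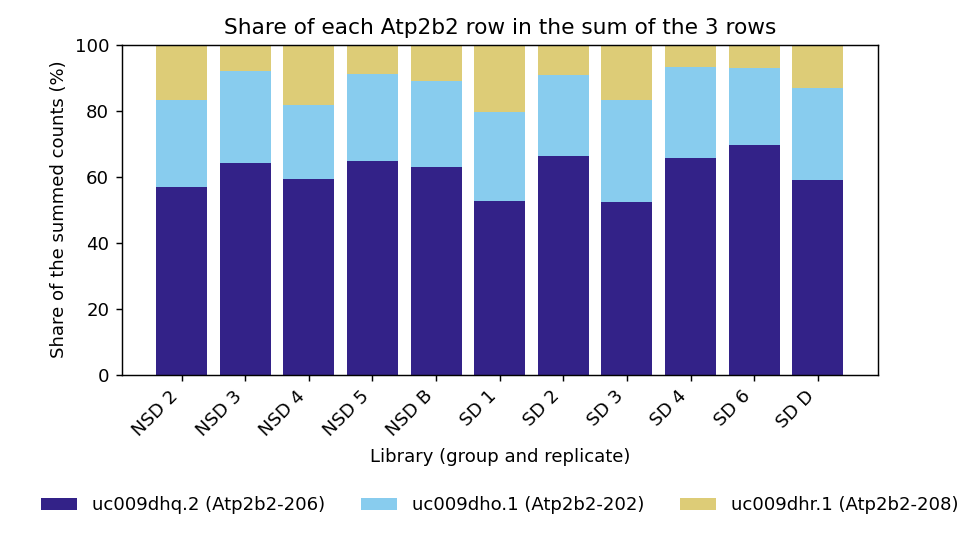
Share of each row in the summed counts of the 3 Atp2b2 rows (y axis, %), with 1 bar per library. In every library uc009dhq.2 is the largest part, and uc009dhr.1 ranges from 6.79% to 20.3%.

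The order of the counts was uc009dhq.2, then uc009dho.1, then uc009dhr.1 in 11 of 11 libraries. The ratio of uc009dhq.2 to uc009dho.1, which have a like number of own bases in vM21, lay between 1.70 and 2.95 with a median of 2.37. The ratio of uc009dho.1 to uc009dhr.1 ranged from 1.24 to 4.07. Without uc009dhr.1, the form with the extra site C exon made up 70.5% ± 1.46 of the remaining counts in NSD and 69.2% ± 4.39 in SD libraries, so the spread between SD libraries was wider also in this share.

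Between the groups, the summed Atp2b2 level was lower in SD libraries, and each row was lower on average with overlapping groups. The sum was 29.1, 31.4, 29.6, 31.0 and 33.1 CPM in NSD replicates 2, 3, 4, 5 and B. It was 24.4, 23.2, 24.7, 24.9, 25.7 and 28.6 CPM in SD replicates 1, 2, 3, 4, 6 and D. The lowest NSD library thus lay just above the highest SD library, replicate D, which itself lay above the rest of its group. The means were 30.8 ± 1.56 and 25.2 ± 1.85 CPM, and the log2 fold change of the sum was -0.29 (standard error 0.0812), against a median of 0.01 over all rows. Every SD library lay below every NSD library in 107 of 29599 rows tested, or 0.361%. The separation of the sum depended on the scaling: it was kept with TMM scaling and lost with CPM by total counts, where NSD replicate 5 had 28.6 and SD replicate 1 had 29.2 CPM.

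The counts of uc009dhq.2 were 401, 466, 451, 480 and 500 in NSD and 378, 364, 335, 406, 498 and 471 in SD libraries, in the same order of replicates. Scaled, they gave 16.6, 20.1, 17.5, 20.1 and 20.8 CPM in NSD and 12.8, 15.4, 12.9, 16.3, 17.9 and 16.9 CPM in SD libraries. Of the 6 SD libraries, 4 lay below the lowest NSD library, and SD replicates 6 and D lay within the NSD range. The means were 19.0 ± 1.86 and 15.4 ± 2.09 CPM, with a log2 fold change of -0.31 (standard error 0.108). With TMM scaling or total counts the groups of this row did not overlap, and 0.564% and 0.828% of all rows had every SD library below every NSD library.

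For uc009dho.1 the counts were 184, 202, 172, 194 and 206 in NSD and 194, 134, 197, 171, 169 and 221 in SD libraries. The levels were 7.61, 8.73, 6.67, 8.13 and 8.58 CPM in NSD and 6.59, 5.67, 7.60, 6.87, 6.06 and 7.94 CPM in SD libraries. Here 3 of 6 SD libraries lay below all NSD libraries, and NSD replicates 2 and 4 lay within the SD range. The means were 7.94 ± 0.833 and 6.79 ± 0.875 CPM, with a log2 fold change of -0.23 (standard error 0.125).

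For uc009dhr.1 the counts were 119, 58, 139, 66 and 88 in NSD and 146, 51, 107, 42, 50 and 105 in SD libraries. The levels were 4.92, 2.51, 5.39, 2.76 and 3.66 CPM in NSD and 4.96, 2.16, 4.13, 1.69, 1.79 and 3.77 CPM in SD libraries. The groups overlapped over most of their range. The means were 3.85 ± 1.28 and 3.08 ± 1.38 CPM, with a log2 fold change of -0.32 and a standard error of 0.276. This value moved from -0.17 without NSD replicate 4 to -0.52 without SD replicate 1, with values of -0.20 and -0.21 without SD replicates 4 and 6. It was -0.16 with the share of reads outside transcripts as a covariate, and -0.68 in the 6 same-numbered libraries.

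By edgeR's quasi-likelihood test at a false discovery rate (FDR) of 0.05, 0 of the 3 rows were called, beside 15 of 29599 rows (0.0507%) in all. At an unadjusted p below 0.05 there were 1317 rows, and DESeq2 called 0 of the 3 and 133 rows (0.449%) in all. The row uc009dhq.2 was called with filterByExpr, beside 191 of 19228 rows (0.993%), and with at least 10 counts in every library, beside 311 of 15757 (1.97%). It was also called with TMM, filterByExpr and the likelihood ratio test together, beside 291 of 19228 rows (1.51%), and with the covariate, beside 167 of 29599 (0.564%). With at least 1 count in 1 library 0 of the 3 were called, beside 33 of 35175 rows (0.0938%). Since the rows were chosen on this contrast, these counts are not read further.

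**Figure D3:**
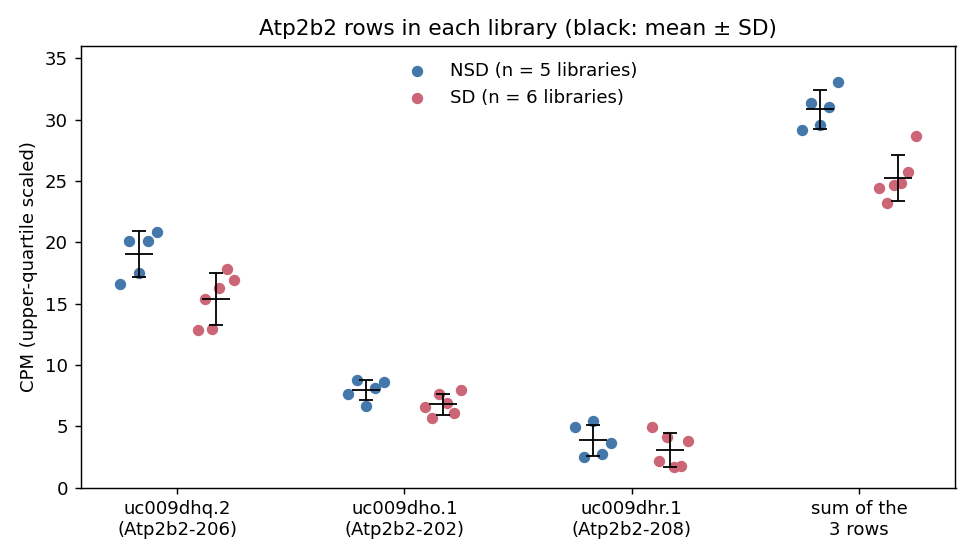
Level of each Atp2b2 row and of their sum in CPM (y axis, upper-quartile scaled), with 1 point per library, NSD in blue and SD in red, and mean ± SD in black. The groups overlap for each row, while the sum is at least 29.1 in NSD and at most 28.6 CPM in SD libraries.

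The spread of each row was set against the error that counting alone would give. The coefficient of variation of uc009dhq.2 was 9.78% in NSD and 13.6% in SD libraries, against 4.66% and 4.95% from counting. For uc009dho.1 it was 10.5% and 12.9%, against 7.22% and 7.43%. For uc009dhr.1 it was 33.2% and 44.9%, against 10.3% and 10.9%, the widest spread of the 3 rows. The sum varied least, by 5.07% and 7.33%, against 3.66% and 3.85% from counting.

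How the rows moved together within the groups does not use the contrast that chose them. Deviations of log2 CPM from the group mean were correlated over the 11 libraries, with a two-sided exact permutation within groups and adjustment over 7 relations. Libraries with more uc009dhq.2 tended to have less uc009dhr.1 (Pearson r = -0.75, exact permutation p = 0.0219, adjusted p = 0.153; Spearman rho = -0.72, exact permutation p = 0.0344, adjusted p = 0.121), which did not pass the adjustment. Without the 2 libraries farthest from the median r was -0.51, and by total counts it was -0.02. The row uc009dho.1 had no relation that passed, to uc009dhq.2 (r = 0.13, exact permutation p = 0.716, adjusted p = 0.790; rho = 0.20, exact permutation p = 0.599) or to uc009dhr.1 (r = 0.10, exact permutation p = 0.790, adjusted p = 0.790; rho = -0.02, exact permutation p = 0.970). Neither r was stable: the former was 0.55 without the 2 farthest libraries and -0.14 with TMM, and the latter 0.40 with TMM and 0.69 by total counts.

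The level of uc009dhr.1 followed the share of reads outside annotated transcripts, a relation examined after the values were seen. The 3 libraries with the highest level, NSD replicate 4, SD replicate 1 and NSD replicate 2, had 17.3%, 21.1% and 27.6% of such reads. The 3 with the lowest, SD replicates 4, 6 and 2, had 9.97%, 11.3% and 11.1%. Within groups, r was 0.79 (exact permutation p = 0.000972, adjusted over 11 relations p = 0.00535) and rho 0.83 (exact permutation p = 0.00230, adjusted p = 0.0127). Without the 2 libraries farthest from the median share r was 0.95. Among the other 15754 rows with at least 10 counts in every library, 8.84% had an r with this share at least as high. Negative values of that size were not counted.

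For uc009dhq.2 the same relation was negative, with r = -0.77 (exact permutation p = 0.00323, adjusted p = 0.0118) and rho = -0.55 (exact permutation p = 0.0686, adjusted p = 0.151). It was -0.67 without the 2 farthest libraries, -0.63 with TMM scaling and -0.15 by total counts, none of which passed. An r at least as low as -0.77 was found in 23.4% of the other rows, with positive values not counted. The upper-quartile factor itself rose with the share of reads outside transcripts (r = 0.84, exact permutation p = 0.000336, adjusted p = 0.00369; rho = 0.90, exact permutation p = 0.000370, adjusted p = 0.00407; r = 0.97 without the 2 farthest libraries). For uc009dho.1, r was -0.08 (exact permutation p = 0.813, adjusted p = 0.813; rho = -0.08, exact permutation p = 0.815).

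**Figure D4:**
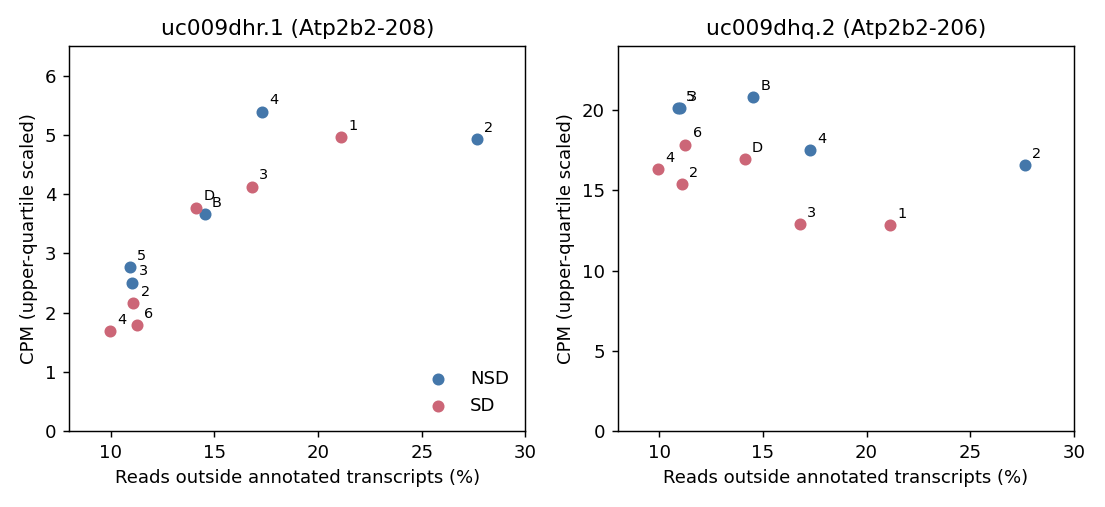
Level of uc009dhr.1 (left) and uc009dhq.2 (right) in CPM (y axes, upper-quartile scaled) against the share of reads outside annotated transcripts (x axes, %), with 1 point per library labelled by its replicate, NSD in blue and SD in red. Libraries with more such reads had more uc009dhr.1 (within-group r = 0.79) and less uc009dhq.2 (r = -0.77).

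The summed level passed no relation to library measures. With the log2 number of counted reads r was 0.62 (exact permutation p = 0.0547, adjusted p = 0.191; rho = 0.69, exact permutation p = 0.0329, adjusted p = 0.121). This r was 0.68 without the 2 farthest libraries but 0.085 with TMM. With the ambiguous share of reads it was 0.35 (exact permutation p = 0.254, adjusted p = 0.593; rho = 0.51, exact permutation p = 0.119), but 0.14 without NSD replicate 2. With the share outside transcripts it was -0.31 (exact permutation p = 0.345, adjusted p = 0.603; rho = -0.35, exact permutation p = 0.317), but -0.092 without NSD replicate 2, -0.46 without SD replicate 2 and -0.47 without SD replicate D. The sign of each of these 3 relations turned by total counts, and that of the last pair also with TMM.

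Markers of other cell types were read beside the sum, as far as rows could be named. Names came from lists of transcripts that mostly had a low p in the same contrast, so named rows lean towards differences between the groups. Of 13 GABAergic marker genes 5 had a named row, and their 7 rows all lay below 0 in log2 fold change with a median of -1.34. By edgeR 0 of them were called and 6 had an unadjusted p below 0.05, and DESeq2, which gave 4 of them no adjusted p, called 0. Over all rows edgeR called 0.0507% and DESeq2 0.449%, and 1317 of 29599 had an edgeR p below 0.05. Without SD replicate 2, which was far above the other SD libraries in several of these rows, the median was -1.56 and edgeR called 2 of the 7 (Gad2 uc008ink.1 and Slc32a1), beside 19 of 29301 rows in all. Gad2, which makes the transmitter GABA, ranged from 20.4 to 92.2 CPM in NSD and from 13.5 to 42.7 CPM in SD libraries on its most abundant named row (uc008ink.1). Slc32a1, the vesicular GABA transporter, had 3.14 ± 1.73 and 1.01 ± 0.817 CPM. The GABAergic rows summed to between 65.4 and 183 CPM in NSD and between 53.4 and 111 CPM in SD libraries. Within groups their relation to the Atp2b2 sum did not pass (r = 0.14, exact permutation p = 0.672, adjusted p = 0.790; rho = 0.16, exact permutation p = 0.648). This r depended on single libraries: it was 0.52 without SD replicate 2, -0.11 without NSD replicate B and -0.087 without NSD replicate 2. Their part in the difference between the groups was not tested, and in such pools fewer cells of a type cannot be told apart from less RNA per cell. The oligodendrocyte gene Mbp, for a myelin protein, was higher in SD, at 180 ± 12.4 and 208 ± 19.6 CPM. Its log2 fold change was 0.21 (standard error 0.0907). The row was not called and had an unadjusted p below 0.05 in edgeR. Of 4 excitatory markers only Camk2a had a named row, a minor one (uc008fbh.2) at 2.51 ± 0.167 and 1.89 ± 0.340 CPM, so the label of the sample was not checked further. No astrocyte or microglia marker had one.

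Other genes that move or sense calcium were followed by a list of 72 genes, of which 13 had a named row. Of their 14 rows 0 were called by edgeR or by DESeq2, and 3 had an unadjusted p below 0.05 in edgeR (Atp2c2, Cacnb4 uc008jrb.2 and Camk2a), beside 0.0507% and 0.449% of all rows called by edgeR and DESeq2 and 1317 of 29599 at that p. By direction, 8 had a log2 fold change above 0 and 6 below, and the median was 0.15, against 0.01 over all rows. Among pumps, Atp2c2, which loads calcium and manganese into the secretory pathway, had 2.42 ± 0.458 CPM in NSD and 3.35 ± 0.594 CPM in SD libraries. No other PMCA gene had a named row. Among exchangers, which move calcium against sodium, Slc24a4 had 24.3 ± 0.639 and 27.2 ± 2.33 CPM, Slc24a2 had a log2 fold change of -0.04 and Slc8a3 one of -0.27. Micu2 and Mcur1, regulators of calcium uptake into mitochondria, had log2 fold changes of 0.15 and 0.18.

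Cacnb4, a subunit of voltage-gated calcium channels, had rows on both sides of 0, uc008jrb.2 with a log2 fold change of 0.38 and uc008jrd.2 with one of -0.29. The calcium sensor Ncs1 had 808 ± 97.4 and 897 ± 126 CPM with a log2 fold change of 0.15, and the sensor hippocalcin (Hpca) a log2 fold change of 0.32. Without SD replicate 2, in which the Hpca row was highest, these sensors had log2 fold changes of 0.10 and 0.19, Micu2 had 0.09 and the median of the list was 0.09. Of the calmodulin-dependent kinases, Camkk1 lay at 0.21, Camk4 at -0.09, Camk2g at -0.14 and the minor Camk2a row at -0.41 on the log2 scale.

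The named rows whose deviations within groups were most like those of the Atp2b2 sum were Setd1b (r = 0.84), Tanc2 (r = 0.81), Csmd1 (r = 0.79), Dchs1 (r = 0.78) and Cxadr (r = 0.77), over 11 libraries and 1994 named rows. They encode a histone methyltransferase, a postsynaptic scaffold, a large membrane protein, a protocadherin and a cell adhesion receptor. Among all 15754 rows with enough counts they ranked 17, 31, 50, 51 and 59, and the highest r of any row was 0.93. Their log2 fold changes between the groups were -0.17, -0.21, -0.08, -0.29 and -0.18. These rows share libraries, scaling and depth with the sum, so the values are a description of likeness only.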

How the data were processed

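Hippocampal ribosome-associated RNA of 5 NSD and 6 SD libraries was analysed. Per the labels, libraries were made with a stranded total RNA kit. The authors trimmed reads with Trimmomatic 0.36, aligned them to mm10 with STAR 2.7.5, counted them per UCSC transcript with HTSeq in intersection-nonempty mode and deposited raw, unnormalized counts. The strand setting is not given in the sources used here. The deposited columns for SD carry the prefix SID and were matched by replicate label. The 5 tallies of uncounted reads stayed out of library sizes and tests, so 22.8% to 31.9% of the reads of a library entered them.

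The 29599 rows that had a minimum of 1 count in 5 or more libraries were fitted with edgeR 4.0.16 in R 4.3.3, using upper-quartile factors. Its quasi-likelihood test was two-sided and adjusted by Benjamini-Hochberg at an FDR of 0.05. The sum of the 3 rows replaced them in a separate fit. log2 CPM used a prior count of 2. The fits were tested on simulated data. Correlations used all 86400 orders of the libraries within groups (SciPy 1.17.1, Python 3.11.15). Counts limit the precision of single libraries, with 42 to 500 per row. P-values measure the spread between pools of mice. Libraries of a group differed beyond counting noise in every pair.

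The table holds no gene names. Rows were named by matching statistics of a refit (TMM, filterByExpr, likelihood ratio test) to the study's supplementary lists, which gave 2254 names. Positions and sequences came from GENCODE vM21. The genes named are the 3 rows, all members of a calcium list and of cell type marker lists with a named row, and the 5 named rows most like the sum. Members and lists were chosen with earlier results of these data known. Alternatives were TMM, DESeq2 1.42.0, the likelihood ratio test, other filters, covariates, the replicate block and each library left out. The covariate and relations with reads outside transcripts, and the sum of 2 rows, were added after seeing the data. Figures were drawn with matplotlib 3.10.9.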

Additional observations from a re-analysis of the deposited data

Results flagged for a closer look

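A single library lay far from the rest of its group, by Dixon's test at 95%, in 4 of 68 groups of values examined, where chance gives about 1 in 20. All 4 were the highest SD library, replicate 2. It had 6.98 CPM of the Hpca row uc008uwb.3, 0.888 CPM of the Gad2 row uc008ini.1, 42.7 CPM of the Gad2 row uc008ink.1 and 2.66 CPM of the Slc32a1 row uc008nqk.1. No Atp2b2 value, level or share, stood apart in this way. In this library the Atp2b2 sum was the lowest of all, at 23.2 CPM.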

How the results depend on the processing

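The log2 fold change of each Atp2b2 row and of the sum stayed below 0 under every alternative run. Without 1 library it lay between -0.36 and -0.27 for uc009dhq.2, -0.29 and -0.18 for uc009dho.1, -0.52 and -0.17 for uc009dhr.1 and -0.33 and -0.27 for the sum. With the replicate block over the 6 libraries with shared numbers the log2 fold changes were -0.28, -0.20, -0.73 and -0.31, and 6 rows were called, against 3 in the same libraries without the block. Same-numbered libraries did not deviate together (r = -0.26, -0.29 and -0.36), so the numbers were not taken as pairs. Differences in mean share stayed within 1 SD between libraries, but for uc009dhq.2 they lay between -2.42 and 0.98 percentage points, for uc009dhr.1 between -2.03 and 0.99 and for uc009dho.1 between 0.33 and 1.78, without 1 library, and the block gave 1.33, -3.44 and 2.11.

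Of the 3 rows, 1 was called (uc009dhq.2) with filterByExpr, with at least 10 counts in every library, with TMM, filterByExpr and the likelihood ratio test together, and with the share outside transcripts as a covariate. The cause was not tested. Among all rows, the 15 calls became 62 with TMM, 133 with DESeq2, 65 with the likelihood ratio test, 191 with filterByExpr (of 19228 rows tested), 311 with 10 counts (of 15757), 33 with 1 count in 1 library, 291 with TMM, filterByExpr and the likelihood ratio test (of 19228), 8 with the label series, 167 with the covariate, and 0 to 78 without 1 library. There were 0 calls without SD replicate D (1178 rows at an unadjusted p below 0.05 in edgeR), 1 without NSD replicate B, 2 without NSD replicate 4, 6 without SD replicate 6, 8 without SD replicate 3 and 78 without SD replicate 1. Of the calls, 13 were higher and 2 lower in SD, against 51 and 11 with TMM, 94 and 39 with DESeq2 and 11 and 22 with 1 count in 1 library.

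Of the relations, that of uc009dhq.2 with uc009dhr.1 passed without SD replicate D (r = -0.91, adjusted p = 0.0403 by exact permutation), with a range of -0.91 to -0.67 without 1 library. That of uc009dhq.2 with the share outside transcripts was lost with TMM (-0.63), total counts (-0.15), Spearman (-0.55) and without the 2 farthest libraries (-0.67), and ranged from -0.81 to -0.70 without 1 library, with an adjusted p of 0.0692 (exact permutation) without NSD replicate 2. That of uc009dhr.1 passed throughout, with 0.73 to 0.94 without 1 library. Signs turned, never past the threshold, for uc009dhq.2 with uc009dho.1 (-0.14 with TMM, -0.024 to 0.38 without 1 library), uc009dho.1 with uc009dhr.1 (-0.018 by Spearman, -0.038 to 0.35 without 1 library), the sum with counted reads (-0.36 by total counts), with the ambiguous share (-0.19 with TMM, -0.51 by total counts, -0.00028 without the 2 farthest, 0.14 to 0.52 without 1 library), with the share outside transcripts (0.30, 0.64 and 0.070, and -0.47 to -0.092 without 1 library) and with GABAergic rows (-0.11 to 0.52 without 1 library), and uc009dho.1 with the share outside transcripts (0.24, 0.51 and 0.085, and -0.22 to 0.029 without 1 library). With 42 to 146 counts, single values of uc009dhr.1 are the least precise of the 3 rows.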
